A study of Homo sapiens with 6 samples.

Results

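The comparison was between 2 of the 6 samples of the series, IGF2BP3 RNase I 0.1/0.025 and IGF2BP3 RNase I 0.05/0.025, chosen because they differ in the dose of RNase I added to the lysate (0.1 against 0.05 U/µL) and share the dose on the beads (0.025 U/µL). The cells were HCT116, which is an established line of human colorectal carcinoma, in a derivative that conditionally expresses Tet-OsTIR1. Both cultures were given 100 µM 4-thiouridine (4sU) for 15 h and irradiated with UV light, endogenous IGF2BP3 was immunoprecipitated, and the RNA was recovered from crushed gel. The antibody also recognizes IGF2BP2, so the RNA of both proteins can be present. Each condition is 1 library without a replicate, so the dose and the library cannot be told apart, no test between the doses was possible and all differences below describe these 2 libraries. An IgG control at 0.1/0.025 and an IGF2BP3 library at 0.05/0.05, whose RNA was electroeluted, are used only for values set beside the comparison.

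IGF2BP3 belongs to a family of RNA-binding proteins that coat cytoplasmic mRNAs, mainly in their 3′ UTR, and affect the stability and translation of those mRNAs. In PAR-CLIP, an immunoprecipitation of crosslinked RNA and protein, 4sU built into RNA crosslinks to the bound protein, and the reverse transcriptase reads the crosslinked base as C in place of T. RNase I cuts single-stranded RNA with little preference for the base. The lysate digestion separates proteins that sit on the same mRNA, and the bead digestion shortens the fragment that stays under the protein.

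The unit of measurement was the cluster, a stretch of overlapping reads called by the PARalyzer program, with its read count and its counts of T positions read as C and as T. The 0.1 library held 803490 cluster reads and the 0.05 library 670712, so 1 read stood for 1.24 and 1.49 RPM (reads per 1000000 cluster reads), respectively. A cluster counted for each gene of GENCODE release 44 whose exons it overlapped on the same strand by at least 1 nucleotide, which placed 90.6% and 90.5% of the reads in genes. Clusters that belonged to several genes held 4.63% of the reads with 0.1 and 5.47% with 0.05. Intervals below are 95% Clopper-Pearson intervals and cover counting error only, since the spread between cultures was not measured. PCR copies had been collapsed by molecular barcodes. All 8 epithelial markers had clusters in at least 1 of the libraries, and none of 7 markers of blood, endothelial, stromal, liver or glial cells had any. In RNA from a whole culture, fewer cells with a transcript and less of it per cell cannot be told apart.

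Short clusters show how alike and how different the same site looked at the doses. The sequences are of human genome build GRCh38 as deposited in the cluster tables, written 5′ to 3′ as DNA, and chosen among 157 site pairs of at most 30 nt as examples of equal, slightly moved and different ends. Capitals mark bases that only the cluster of that library covered.
TUBAP2, 0.1, 61 reads, chr11:90284003-90284031, plus strand: atccattccttttggccctgcagcatgtc
TUBAP2, 0.05, 48 reads, chr11:90284003-90284031, plus strand: atccattccttttggccctgcagcatgtc
H3-5, 0.1, 17 reads, chr12:31791562-31791590, minus strand: CAGCActgttgctcaggagtgacaagttg
H3-5, 0.05, 11 reads, chr12:31791562-31791585, minus strand: ctgttgctcaggagtgacaagttg
KIAA1191, 0.1, 20 reads, chr5:176346392-176346416, minus strand: gttcaggtcAGGGCCTGGAACGCCT
KIAA1191, 0.05, 9 reads, chr5:176346408-176346436, minus strand: TAACTTACTTTGATTTCCTTgttcaggtc
The cluster in the α-tubulin pseudogene TUBAP2 had identical ends in both libraries. The alignment can exchange reads of a pseudogene and its parent, so the origin of these reads is less certain. The cluster in the 3′ UTR of H3-5, an intronless histone H3.3 gene, began 5 nt further upstream with 0.1. In the 3′ UTR of KIAA1191 the clusters shared 9 nt, and the 0.05 cluster lay 20 nt further upstream.

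Most genes had similar cluster reads at both doses. Of 8475 genes with a cluster in either library, 6412 (75.7%) had one in both, 1193 in the 0.1 library alone and 870 in the 0.05 library alone. The genes of a single library were shallow, with a median of 6 reads in each case and at most 45 and 58 reads. They held 1.37% and 1.06% of the gene reads. For 4056 genes with at least 50 reads over both libraries, the ratio of RPM (0.1 over 0.05) had a median log2 value of 0.02, with quartiles of -0.26 and 0.32. Of these genes, 76.3% lay within 1.5-fold, 92.1% within 2-fold and 98.9% within 4-fold. Across the 4055 of them with reads in both libraries, Pearson's r of log2 RPM was 0.914 and Spearman's rho 0.905. These values are across genes, which are not independent replicates and share the depth of their library.

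Genes past 2-fold were few and mostly shallow. There were 194 genes at least 2-fold higher with 0.1 (4.78% of the 4056) and 126 at least 2-fold lower (3.11%). The interval of the ratio lay wholly above 1 for 729 genes (18.0%) and wholly below 1 for 644 (15.9%). It lay wholly past 2-fold for 37 and 18 genes. Among the 225 genes with at least 1000 reads, 1 was 2-fold higher and 2 were 2-fold lower, and the quartiles of the log2 ratio were -0.15 and 0.09. In the quintile of genes with the fewest reads (50 to 76), 14.9% were 2-fold higher and 7.88% lower, against 0.617% and 0.493% in the quintile with the most (415 to 12198).

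**Figure D1:**
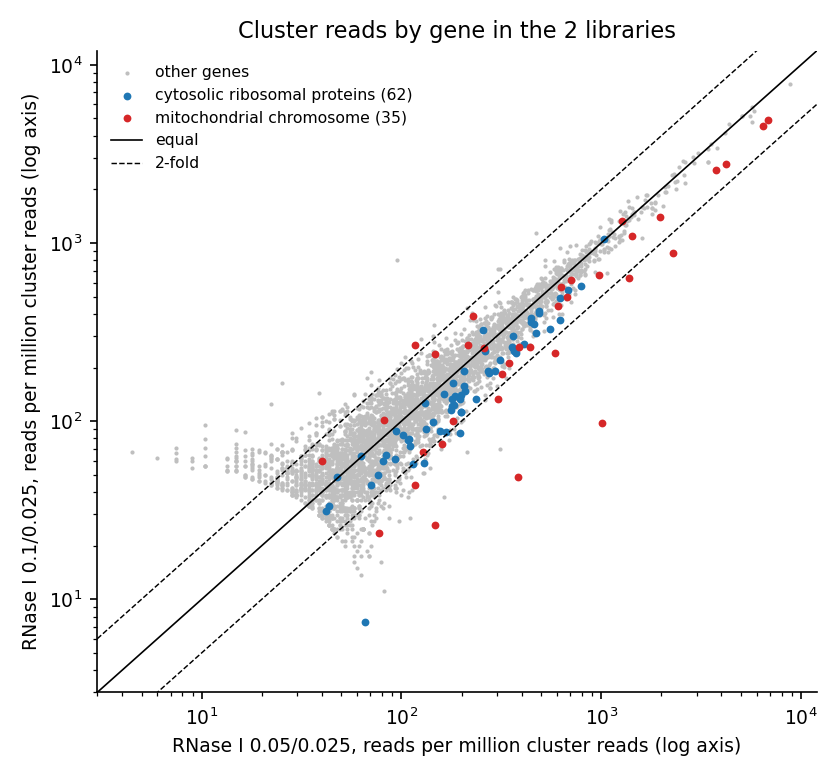
RPM of each gene in the 0.05/0.025 library (x axis) and the 0.1/0.025 library (y axis), both on log axes; each point is 1 gene with at least 50 reads over both libraries. The spread narrows from the shallow to the deep genes, and most ribosomal protein genes (blue) and genes on the mitochondrial chromosome (red) lie below the line of equal values.

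The nuclear genes with the most reads stayed close to a ratio of 1. PABPC1, the cytoplasmic poly(A)-binding protein, had the most reads, 6270 with 0.1 and 5928 with 0.05, or 7803 and 8838 RPM (ratio 0.883, log2 interval -0.23 to -0.13). CDKN1A, the cyclin-dependent kinase inhibitor p21, had 4654 and 3796 reads, 5792 and 5660 RPM. KITLG, the ligand of the receptor tyrosine kinase KIT, had 4452 and 3917 reads, and DCBLD2, a transmembrane receptor-like protein, 4172 and 3739. Their ratios were 0.949 and 0.931, with log2 intervals of -0.14 to -0.01 and -0.17 to -0.04. PTP4A1, a protein tyrosine phosphatase whose clusters all belong to an overlapping gene model too, had 4174 and 3393 reads and a ratio of 1.03. MT-RNR2 and MT-TL1 of the mitochondrial chromosome, also among the 8 genes with the most reads, are given with that chromosome. TUBA1B, an α-tubulin, was lower with 0.1 at 4768 against 5697 RPM (ratio 0.837). In the 0.05/0.05 library the same gene had 1293 RPM.

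Among the transcripts that the study names, the order of doses differed from gene to gene. MYC, a transcription factor that drives growth, had 268 reads with 0.1 and 372 with 0.05, or 334 and 555 RPM, and its log2 ratio of -0.73 had an interval of -0.97 to -0.50. PARK7, a redox-sensitive chaperone, had 121 and 161 reads (151 and 240 RPM), all in 1 cluster per library. SRPRB, a subunit of the signal recognition particle receptor, was 2.06-fold lower with 0.1, at 68 against 117 reads. RNF185, a ubiquitin ligase of the endoplasmic reticulum, went the other way, with 59 reads in 7 clusters against 25 reads in 1 cluster (ratio 1.97, log2 interval 0.28 to 1.71). With clusters of at least 10 reads alone, the log2 ratio of RNF185 was 0.22 in place of 0.98. HMGA2, a chromatin architectural protein, had 1446 and 1419 RPM, FABP5, a fatty acid-binding protein, 224 and 216, and CCND1, cyclin D1, 2419 and 2603. CCND1 had a ratio of 0.929 with a log2 interval of -0.20 to -0.01. For HMGA2 and FABP5 the interval of the ratio held 1, as it did for CCNG1 (cyclin G1), GABARAPL2 (an autophagy protein), and for CCND3 (cyclin D3) and BCL3 (a nuclear co-activator of NF-κB), which had under 20 reads in each library. MYC had 755 RPM in the 0.05/0.05 library. The mRNA of IGF2BP3 itself carried 73 and 82 reads and that of IGF2BP2 55 and 47, with intervals that held a ratio of 1, and IGF2BP1 had no cluster in either library.

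The cytosolic ribosomal protein mRNAs had lower values at the higher dose. Of 79 genes 75 had a cluster and 62 passed the minimum of 50 reads; 58 of the 62 lay below a ratio of 1, where 48.1% of all genes did, and 42 had an interval wholly below 1. Their median log2 ratio was -0.48, against 0.02 for all genes, and 4 were at least 2-fold lower and none higher. Together the genes held 12305 RPM with 0.1 and 16523 with 0.05, a ratio of 0.745, and 13356 in the 0.05/0.05 library. RPL23 of the large subunit had 571 and 796 RPM, and RPLP0, the base of the ribosomal stalk, 371 and 623. RPS23 of the small subunit had 494 and 620. RPL15, with the most reads, had 1049 and 1038, with a log2 interval of -0.13 to 0.16. RPS19 was the lowest at 6 against 44 reads, and 25 of its 44 reads lay in a pair of coding-sequence clusters of 7 and 18 reads that had no counterpart with 0.1.

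Processed pseudogenes copied from ribosomal protein mRNAs ran in the same direction. Of 57 such pseudogenes that passed the minimum, 55 lay below a ratio of 1 and 11 were at least 2-fold lower, with a median log2 ratio of -0.72. This group was formed from symbols after the values were seen. Reads of a pseudogene and its parent can be exchanged by the alignment, so the pseudogenes are no second measurement. Among all 190 processed pseudogenes that passed, 29 (15.3%) were at least 2-fold lower and 5 (2.63%) higher. Over all genes these shares were 3.11% and 4.78%, and 48.1% lay below a ratio of 1.

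The mRNAs of the respiratory chain encoded in the nucleus lay mostly on the same side. Of 77 genes 56 had a cluster and 30 passed, of which 25 lay below a ratio of 1, 14 with their whole interval. The shares over all genes that passed were 48.1% and 15.9%. Their median log2 ratio was -0.43. ATP5F1B, the catalytic β subunit of ATP synthase, had 401 RPM with 0.1 and 635 with 0.05. COX6A1, a subunit of cytochrome c oxidase, had 253 and 368, and COX7C, another subunit, 243 and 324. CYCS, the electron carrier cytochrome c, had 253 and 252, with an interval that held 1. NDUFV2, a complex I subunit, had the lowest log2 ratio of the list, -1.54.

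The other lists of nuclear genes with at least 10 genes past the minimum had medians closer to that of all genes. Beside the counts below stands the share of all genes that lay below a ratio of 1, 48.1%. Translation factors lay below 1 in 22 of 29 genes, with a median log2 ratio of -0.18; EEF2, the elongation factor that moves the ribosome along the mRNA, had 3603 and 3560 RPM and EIF5, an initiation factor, 1175 and 1308. Chaperones lay below 1 in 17 of 28 (median -0.19), and HSPD1, the mitochondrial chaperonin, had 1062 and 1592 RPM, whereas CANX, the lectin chaperone calnexin, had 2396 and 2262. CCT4, a subunit of the cytosolic chaperonin, was 4.35-fold lower at 30 against 109 reads; of its 10 clusters with 0.05, 3 were in the 3′ UTR and 7 in coding sequence, and with 0.1 it had 3 clusters. With clusters that overlapped one of the other library alone, its log2 ratio was -1.06 in place of -2.12. Cytoskeletal genes lay below 1 in 16 of 21 (median -0.23) and glycolytic genes in 10 of 12 (median -0.21), with LDHA, a subunit of lactate dehydrogenase, at 1088 and 1091 RPM and ENO1, enolase, at 454 and 578. For hnRNP and SR proteins, which act in splicing, the list median was -0.08 and 17 of 27 lay below 1. For membrane and secretory proteins it was -0.02, with 13 of 24 below 1; SLC38A2, an amino acid transporter, had 1670 and 1774 RPM. None of the genes in these 2 lists was past 2-fold. Cell cycle genes lay below 1 in 10 of 14 (median -0.18), and CCNA2, cyclin A2, was the one member of any list that was 2-fold higher with 0.1, at 54 against 17 reads (log2 ratio 1.41, interval 0.60 to 2.29), with 2.96 RPM in the 0.05/0.05 library. Of the 10 genes that passed among reported IGF2BP targets, 8 lay below 1, with a median of -0.12 and HMGA1, a chromatin protein, at 4656 and 4385 RPM. These medians are descriptions of lists chosen with earlier results of the data known.

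**Figure D2:**
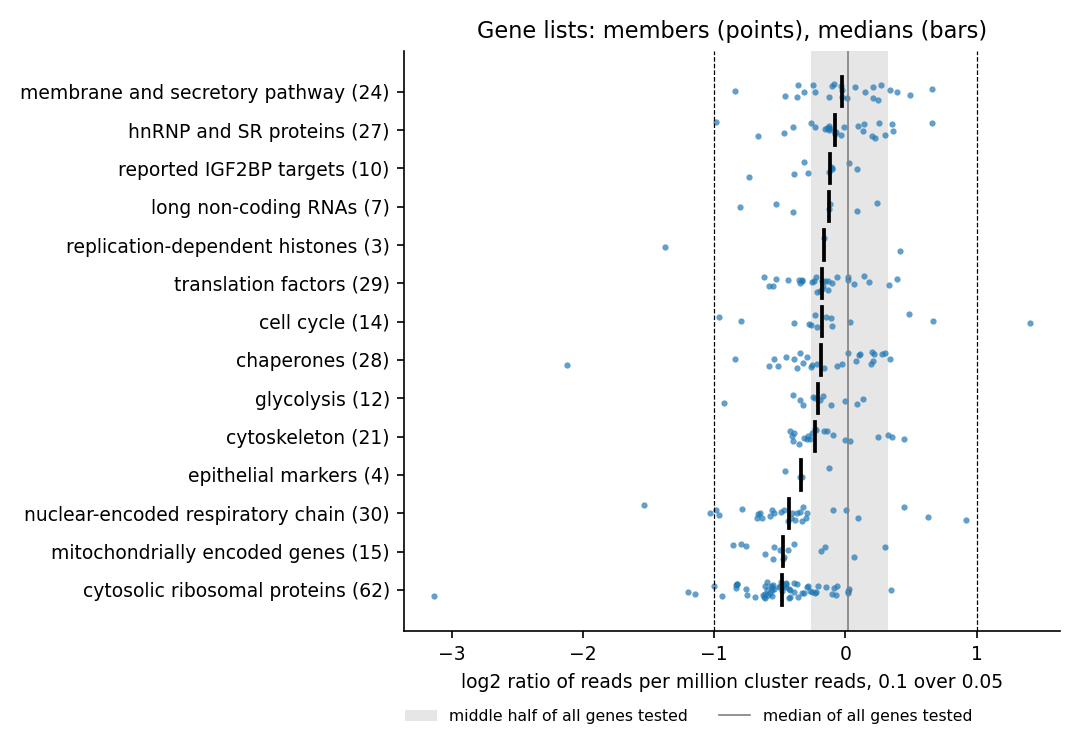
The log2 ratio of RPM (0.1 over 0.05) of each gene that passed the minimum, by gene list, with the number of genes in parentheses; black bars are list medians, the grey band spans the quartiles of all 4056 genes and dashed lines mark 2-fold. The points of cytosolic ribosomal proteins, mitochondrially encoded genes and the respiratory chain lie mainly to the left of the band.

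Replication-dependent histone mRNAs, which end in a stem-loop and carry no poly(A) tail, were too shallow for most single values. Of 16 genes 12 had a cluster and 3 passed the minimum. Summed, they had 157 RPM with 0.1 and 334 with 0.05, and 71.1 in the 0.05/0.05 library. H2BC21 had 18 and 39 reads, and H4C3 7 and 29. H1-4, a linker histone, was higher with 0.1 at 40 and 25 reads, with an interval that held 1.

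The mitochondrial chromosome gave a smaller share of the reads at the higher dose. It held 14073 of the reads with 0.1 (1.75%, interval 1.72 to 1.78%) and 16204 with 0.05 (2.42%, interval 2.38 to 2.45%), a share 1.38-fold lower with 0.1, and in the 0.05/0.05 library its plus strand held 1.09% and its minus strand 0.0887% of the reads. Of the 13 mRNAs and 2 rRNAs, 13 lay below a ratio of 1 and 12 had intervals wholly below it, with a median log2 ratio of -0.48. The shares over all genes were 48.1% and 15.9%. MT-CO1, a core subunit of cytochrome c oxidase, had 1396 RPM with 0.1 and 1970 with 0.05, and MT-CYB, cytochrome b, 661 and 971. MT-RNR2, the large rRNA, had 4915 and 6833 (log2 ratio -0.48), a log2 ratio that was -0.23 with clusters of a single gene. MT-ND4, a complex I subunit, had 1328 and 1270. The IgG control had 324 cluster reads in all, and clusters that overlapped one of its 25 held 2.05% of the reads with 0.1 and 2.37% with 0.05; its reads on both mitochondrial rRNAs were 25 for MT-RNR1 and 12 for MT-RNR2.

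The values of several mitochondrial tRNA genes, but not of all, rested on where a cluster ended. All 21 that had a cluster passed the minimum, 11 were at least 2-fold lower with 0.1 and 1 higher. The shares over all genes were 3.11% and 4.78%. The primary transcripts of this chromosome run through tRNAs and mRNAs, so that a cluster can cover both. MT-TM, the tRNA for methionine, had 39 reads in a 43-nt cluster with 0.1, and 256 reads with 0.05 in a 358-nt cluster that ran on into the next mRNA. MT-TH, the tRNA for histidine, had 675 reads with 0.05, of which 554 lay in a 738-nt cluster that reached its first base only, against 78 with 0.1. Counting a cluster only for a gene that held at least 50% of its length, an alternative chosen after the data were seen, left 43 and 43 reads for MT-TH, 39 and 0 for MT-TM and 21 and 0 for MT-TY (the tRNA for tyrosine), and brought the count of tRNA genes past the minimum to 13, with 7 at least 2-fold lower and 1 higher (MT-TL2, 181 and 0 reads). With that rule 13 mitochondrial mRNAs and rRNAs of 14 that passed lay below a ratio of 1, but single genes changed sides. MT-ND4 and MT-ATP8, a subunit of ATP synthase, went from log2 ratios of 0.06 and 0.30 to -0.25 and -0.17, and MT-ND6, a complex I subunit, from -0.80 to 1.51, at 41 and 12 reads. The log2 ratio of MT-RNR2 was then -0.15, and MT-TW, the tRNA for tryptophan, had 195 and 377 reads. MT-TC, the tRNA for cysteine, went from 191 and 99 reads to 0 and 99. The tRNA genes MT-TE, MT-TG, MT-TP, MT-TS2 and MT-TQ kept their log2 ratios. The median log2 ratio of the tRNA genes that passed was -1.10 by either rule. The tRNA for lysine, MT-TK, had 58 reads in 1 cluster with 0.05 and no called cluster with 0.1. With 3 reads taken as the limit of detection the value was 23.2-fold lower, but a site with too few conversions can hold more reads and go uncalled. MT-TF, the tRNA for phenylalanine, had 703 and 1542 reads, all shared with other genes.

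Small structured RNAs made by RNA polymerase III lay on the lower side with 0.1 in most cases. Of 19 genes annotated as miscellaneous RNA that passed the minimum, which include these, 16 lay below a ratio of 1 and 5 were at least 2-fold lower. The shares over all genes that passed were 48.1% and 3.11%. The 4 Y and vault RNA genes with their own names that passed the minimum all lay below a ratio of 1. RNY1, which binds the Ro protein, had 321 and 410 reads, and VTRNA1-2, a vault RNA, 54 and 142. RN7SK, the RNA that holds the elongation factor P-TEFb inactive, had 123 and 187 reads, 153 and 279 RPM. RN7SL1, the RNA of the signal recognition particle, had 81 and 62 reads, with an interval that held 1. Copies of such genes are nearly identical, so the counts of a single locus are uncertain. None of the 7 long non-coding RNAs of the list that passed was past 2-fold, 5 lay below a ratio of 1 and 3 had their whole interval there. The interval lay wholly below 1 in 15.9% of all genes that passed. GAS5, a snoRNA host, had 46 and 67 reads and ZFAS1, another one, 217 and 262. NORAD, which sequesters Pumilio proteins, had 728 and 664 reads (906 and 990 RPM), SNHG1, also a snoRNA host, 1550 and 1403, and TUG1 651 and 511.

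The ratio of the doses went with the length of the 3′ UTR. Among protein-coding genes that passed the minimum, the quintile with the shortest 3′ UTR in its canonical transcript (3 to 761 nt) had a median log2 ratio of -0.20, and the medians of the following quintiles were -0.02, 0.06, 0.12 and 0.19, the last for 3874 to 32873 nt. In the shortest decile, up to 412 nt, 74.3% of genes lay below a ratio of 1, and in the longest decile 28.8%. The shortest decile included 34 ribosomal protein genes. Without the ribosomal protein genes the medians of the quintiles were -0.18, -0.01, 0.07, 0.12 and 0.19. The range between the quartiles within each quintile was wider than the step between neighbouring quintiles. Over the GC content of a gene's clusters the medians went less far, from 0.08 in the quintile up to 36.5% GC to -0.07 in the quintile from 48.8%. These are descriptions across genes, with no test, and the part of GC content in the order was not tested.

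**Figure D3:**
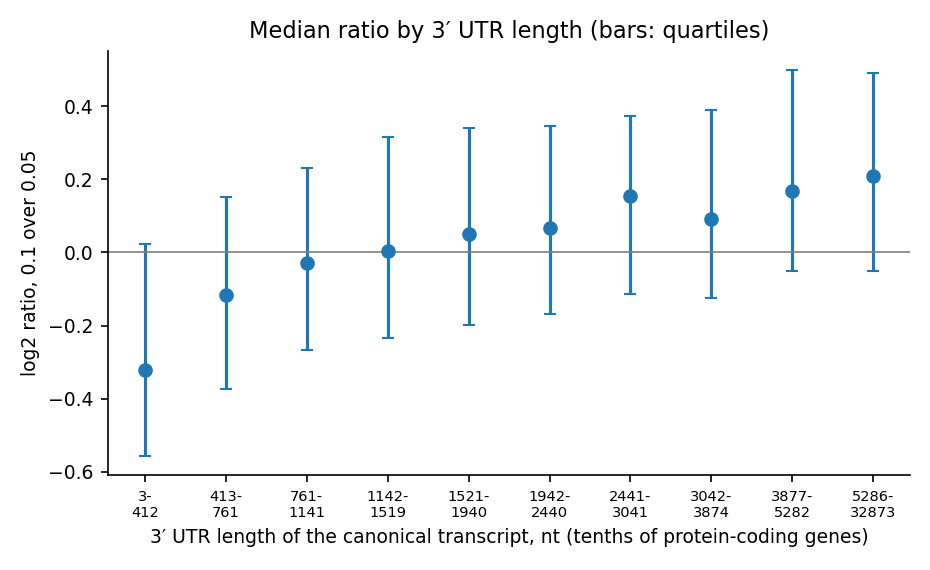
Median log2 ratio of RPM (0.1 over 0.05) in deciles of protein-coding genes ordered by 3′ UTR length in nt (x axis); bars span the quartiles of each decile. The medians go from -0.32 for the shortest to 0.21 for the longest 3′ UTRs, and the bars of neighbouring deciles overlap.

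With 3′ UTR counted before coding sequence where a cluster overlapped both, the share of reads by transcript region moved by under 2 percentage points. Clusters in 3′ UTRs held 74.9% of the reads with 0.1 and 73.0% with 0.05, intervals that do not overlap; with coding sequence counted first the shares were 63.3% and 60.2%. Coding sequence held 9.12% and 9.75%, exons of non-coding genes 6.29% and 7.44%, introns 2.81% and 2.87% and 5′ UTRs 0.278% and 0.281%. For 386 genes with at least 50 reads in each of both regions, the median log2 ratio was 0.01 for their 3′ UTR clusters and -0.01 for their coding clusters, and the coding ratio was the lower one in 200 of them.

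The genes that were highest with 0.1 over 0.05 were mRNAs with several small clusters and loci where the border of a cluster differed. CREBL2, a transcription factor of the CREB family, had 54 reads in 7 clusters of its 3′ UTR with 0.1 and 3 reads in 1 cluster with 0.05 (67.2 and 4.47 RPM), and 6 of the 7 had no counterpart. In the 0.05/0.05 library it had 63.5 RPM. YIPF4, a Golgi membrane protein, had 50 reads in 6 clusters and 4 reads in 1, and this one did not overlap any cluster with 0.1. GPCPD1, a glycerophosphocholine phosphodiesterase, had 64 and 7 reads, KCTD3, a protein with a BTB domain, 100 and 15, and CKAP5, a microtubule polymerase, 53 and 5. SLC16A9, a monocarboxylate transporter, had 57 and 5 reads and STK26, a serine/threonine kinase, 49 and 5. The only 0.05 clusters of GPCPD1 and YIPF4 were short enough to show, with capitals for bases outside any 0.1 cluster.
GPCPD1, 0.05, 7 reads, chr20:5547497-5547525, minus strand: cactacagttcttgcaagtatgctattta
YIPF4, 0.05, 4 reads, chr2:32306392-32306420, plus strand: TAATGGATATGGCATTCATTAAAATCTTT
The GPCPD1 site lay wholly within a cluster of the other library and the YIPF4 site wholly outside.

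For pseudogenes and nested genes at the top of the order the value depended on cluster borders. BZW1P2, a processed pseudogene, had 646 reads with 0.1 and 64 with 0.05. Of the 646, 605 lay in a cluster at chr3:116645635-116645944 that reached into the pseudogene from outside (the gene spans 116645902 to 116646727), and that cluster overlapped 2 clusters of the 0.05 library with 432 reads that ended before the gene. Counted by the 50% rule, its log2 ratio turned from 3.07 to -0.90. RCN1P2, a pseudogene with 131 and 17 reads, likewise rested on 1 cluster that overlapped 99 reads with 0.05. MIR3198-2 lies in the 3′ UTR of CBX5, a heterochromatin protein, and shared all its reads (76 and 7) with that gene. Its cluster of 54 reads with 0.1 overlapped 2 clusters of the 0.05 library with 53 reads that did not reach MIR3198-2.

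Among the lowest ratios were several loci of the same kind. COX6A1P2, a pseudogene of COX6A1, had 56 and 210 reads, of which 175 with 0.05 lay in a 163-nt cluster that reached its last bases from outside, and by the 50% rule its log2 ratio was -0.10 in place of -2.17. EIF4HP1, a pseudogene of the initiation factor EIF4H, had 9 and 55 reads, of which 42 lay in a 236-nt cluster that reached its edge. That cluster overlapped 1 cluster of the 0.1 library with 51 reads, which did not count for EIF4HP1. ZNF507, a zinc finger protein, differed without such a cluster, with 13 reads in 2 clusters of its 3′ UTR against 53 reads in 6 clusters, 5 of which had no counterpart.

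Unmatched clusters, which overlap none of the other library, differed between genes past and within 2-fold, on the side that the ratio itself favours. The 194 higher genes had a median of 6 clusters with 0.1 and 2 with 0.05, and a median of 56.4% of their 0.1 reads were in such clusters, against 0% of their 0.05 reads. For the 3736 genes within 2-fold these were 12.5% and 7.56%. The 126 lower genes had a median of 2 clusters with 0.1 and 4 with 0.05, with 23.9% of their 0.05 reads and 0% of their 0.1 reads unmatched. Over all clusters, 61.4% with 0.1 and 73.2% with 0.05 overlapped one of the other library by at least 1 nt, and these held 85.7% and 90.5% of the reads. Unmatched clusters had a median of 6 reads in both libraries. With matched clusters alone, 21 genes were 2-fold higher (0.605%) and 51 lower (1.47%).

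At single sites the ends of the clusters moved in both directions. Of the clusters, 16363 pairs matched 1 to 1, and both ends were identical in 134 of them (0.819%). In the 2469 pairs with at least 20 reads in each library, the 5′ end was the same in 271, lay further upstream with 0.1 in 1179 (47.8%) and further downstream in 1019 (41.3%), and the 3′ end was the same in 261, reached further downstream with 0.1 in 1174 (47.5%) and less far in 1034 (41.9%). An end lay within 5 nt of its partner in 47.3% and 46.7% of pairs. The median length of these pairs was 105 nt with 0.1 and 100 nt with 0.05. The deposited mode position of a cluster was identical in 7.61% of the pairs and within 5 nt in 22.1%. The composition of the ends was close in both libraries. The first base was A in 40.3% of clusters with 0.1 and 39.6% with 0.05, and the last base was C in 21.5% and 22.8%, the largest difference at an outermost base of a cluster.

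**Figure D4:**
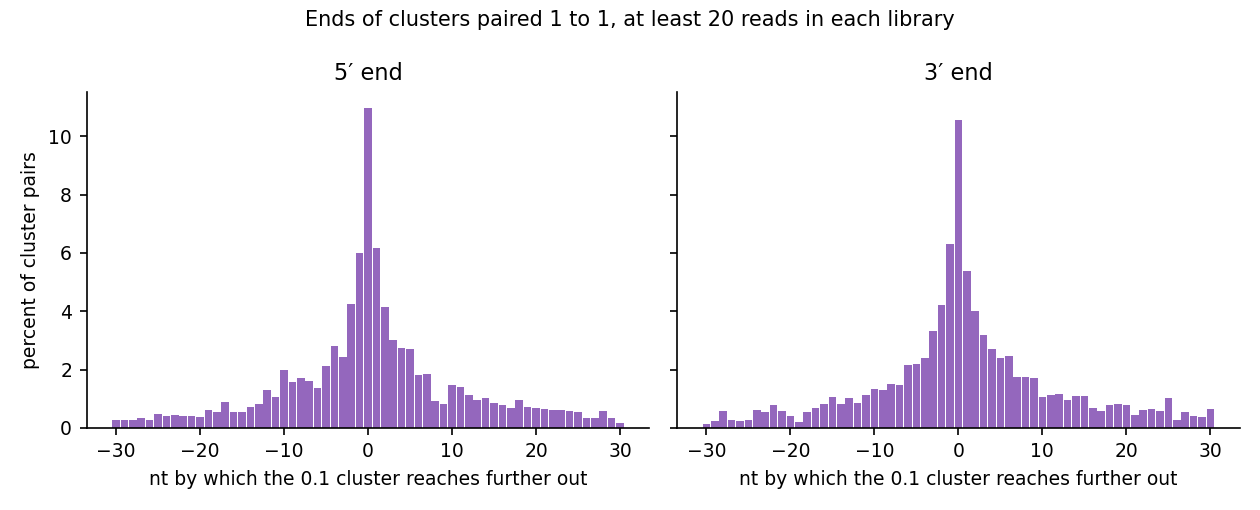
Distance between the ends of 2469 cluster pairs with at least 20 reads in each library, in nt (x axis; positive where the 0.1 cluster reaches further out), as percent of pairs (y axis), for shifts of up to 30 nt. The highest bar is at 0, with 271 of the 5′ ends and 261 of the 3′ ends, and shifts are seen on both sides.

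Cluster length by gene changed little and depended on how neighbouring clusters were joined. For 3940 genes with at least 20 reads in each library, the read-weighted mean cluster length was longer with 0.1 in 2211 (56.1%), with a median difference of 3.44 nt and quartiles of -13.0 and 23.0 nt. Genes covered a median of 440 nt with 0.1 and 374 nt with 0.05. The 0.1 library also had more cluster reads (803490 against 670712), and cluster reads per covered nt were 0.273 and 0.272. The part of depth in the covered length and in the joining of clusters was not tested. The largest increases came from merged stretches. TMED2, a cargo receptor of the early secretory pathway, had 2587 reads in a single 3′ UTR cluster of 1235 nt with 0.1, and the same stretch was divided into 4 clusters with 0.05 that held 2197 reads. H3-3B, which encodes histone H3.3, had 1776 reads in a cluster of 1081 nt with 0.1, and 603 and 990 reads in clusters of 686 and 472 nt with 0.05. POM121, a nucleoporin, and TGOLN2, a trans-Golgi protein, gained 445 and 408 nt, and the non-coding LINC01123, with 576 and 209 reads, 516 nt. The log2 ratio of reads of LINC01123 was above 0 (interval 0.97 to 1.44) and turned to -3.32 by the 50% rule, and its 723-nt cluster of 551 reads with 0.1 overlapped 4 clusters of 544 reads with 0.05. The opposite was seen for TXNDC5, a disulfide isomerase that shares its reads with the readthrough gene BLOC1S5-TXNDC5 (577 and 945 nt), CALM2, a calmodulin gene (251 and 562 nt), and M6PR, a mannose phosphate receptor (189 and 493 nt). MT-TV, the mitochondrial tRNA for valine, had 143 and 399 nt.

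Conversions per read were higher at the higher dose, and the difference was seen across transcript regions. Over all clusters there were 0.644 T-to-C conversions per read with 0.1 and 0.600 with 0.05, and 0.633 with 0.05/0.05. By gene the value was higher with 0.1 in 2651 of 3940 genes (67.3%), with a median difference of 0.0389 conversions per read and quartiles of -0.0188 and 0.0907. In the 184 genes with at least 500 reads in each library it was higher in 172 (93.5%), with a median difference of 0.0510. The values of the libraries had a Pearson's r of 0.932 across these 184 genes, which include mitochondrial genes with low values. Across all 3940 genes the r was 0.423, so the values of most single genes were less alike. Genes above 0.5 conversions per read made up 96.2% with 0.1 and 91.3% with 0.05. The value was higher with 0.1 in every region measured, by 0.00928 in 5′ UTRs (0.619 against 0.610) and by more in the others. The values were 0.653 against 0.610 in 3′ UTRs, 0.638 against 0.589 in coding sequence, 0.603 against 0.552 in introns and 0.613 against 0.573 outside genes. Clusters of 2 to 4 reads had 0.658 and 0.648 conversions per read, and clusters of at least 50 reads 0.637 and 0.585. A cluster needs a minimum of conversions to be called, which weighs most in the smallest clusters. The closeness of the libraries there can therefore not be read as a result about the dose.

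The reads of the 0.1 library covered slightly fewer T positions each. A read carried 8.02 T observations on average with 0.1 and 8.19 with 0.05, at T contents of 31.9% and 32.0% of the cluster sequence. By gene the number was lower with 0.1 in 2447 of 3940 (62.1%), with a median difference of -0.20. Per T observed, 8.03% were converted with 0.1 and 7.33% with 0.05, and the gene-level share was higher with 0.1 in 73.4% of genes with a median difference of 0.67 percentage points. Across genes the difference in conversions and the log2 ratio of reads had a Pearson's r of -0.0154 over the 3940 genes.

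**Figure D5:**
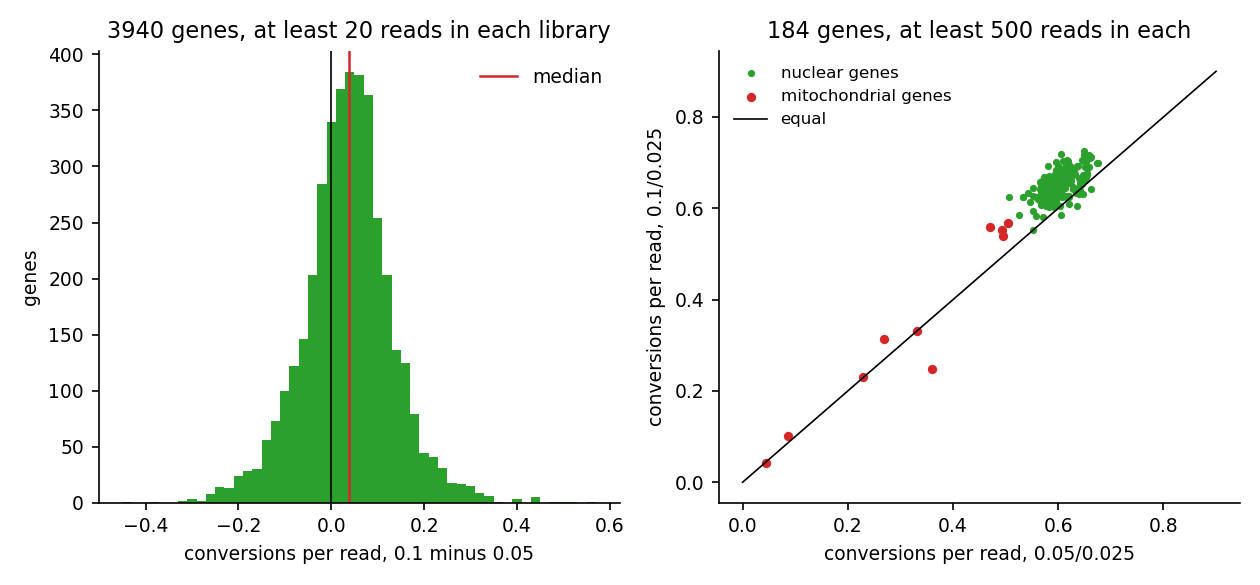
Left, histogram of the difference in conversions per read (0.1 minus 0.05) over 3940 genes with at least 20 reads in each library, with the median of 0.0389 in red. Right, conversions per read in both libraries for 184 genes with at least 500 reads in each; 172 lie above the line of equal values, and the mitochondrial genes (red) reach down to 0.0432.

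Among genes with at least 200 reads in each library, NFE2L2, a transcription factor of the antioxidant response, had the largest increase, from 0.536 conversions per read with 0.05 to 0.711 with 0.1. SLC25A5, the mitochondrial ADP/ATP carrier, went from 0.571 to 0.745, TSPAN5, a tetraspanin, from 0.605 to 0.770, and PA2G4, a growth-regulated RNA-binding protein, from 0.463 to 0.625. The readthrough transcript ARHGAP27P1-BPTFP1-KPNA2P3 went from 0.567 to 0.737. The largest decreases were in MT-TF, the mitochondrial tRNA for phenylalanine, from 0.360 to 0.248, and in RPL23A, from 0.712 to 0.604. The values of MT-TF came from 1 cluster per library, of 350 nt with 0.1 and 591 nt with 0.05. Both clusters ran well past the tRNA (577 to 647), so they compare different stretches and not the tRNA alone. RPS23 went from 0.651 to 0.574. DNAJC8, a spliceosomal J-domain protein, went from 0.731 to 0.639, and GTF3C4, a subunit of transcription factor IIIC, from 0.631 to 0.557. In the gene lists the value was higher with 0.1 in 43 of 61 ribosomal proteins, 24 of 28 chaperones, 25 of 30 translation factors, 21 of 27 hnRNP and SR proteins and 12 of 20 cytoskeletal genes, next to the 67.3% of all genes. Mitochondrial clusters had fewer conversions in both libraries, 0.335 with 0.1 and 0.313 with 0.05. MT-TL1, the tRNA for leucine, whose reads all belong to neighbouring genes too, had 0.0432 and 0.0438 at 3634 and 4314 reads.

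Target genes were called by limits adapted from the study, a cluster above 10 RPM with over 0.5 conversions per read. The study's limit is 10 CPM (counts per 1000000), and its methods do not name the reads that CPM divides by. RPM here divides by cluster reads, and a cluster counted for every gene whose exons it overlapped. The counts are therefore not the study's own target calls. The target genes numbered 4812 with 0.1 and 5107 with 0.05. Of these, 4060 were shared, 752 were in the 0.1 library alone and 1047 in the 0.05 library alone. The criterion that was missed differed. Of the 1047 genes, 634 (60.6%) had clusters with 0.1 but none above 10 RPM, 205 (19.6%) had such a cluster without enough conversions and 208 (19.9%) had no cluster. Of the 752 genes, 259 (34.4%) had no 0.05 cluster above 10 RPM, 316 (42.0%) had one without enough conversions and 177 (23.5%) had none. The shallow side of the threshold was involved in both: genes that were targets with 0.05 alone had a median of 14 reads there and 10 with 0.1, and those with 0.1 alone 22 and 10, against 86 and 69 reads for genes that were targets in both. The limit of 10 RPM stood for 8.03 reads with 0.1 and 6.71 with 0.05. With at least 8 reads per cluster in both libraries in place of it, 1131 genes were targets with 0.1 alone and 625 with 0.05 alone, so the order of the libraries turned. A fixed read limit is stricter for the 0.05 library, where 1 read stood for 1.49 RPM against 1.24 with 0.1. Above 20 RPM the numbers were nearly equal, 575 and 563.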

How the data were processed

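The deposited cluster tables of the authors were used as given. Per the study's methods and the submitters' processing notes, reads were demultiplexed with bcl2fastq 2.20.0.422, molecular barcodes were handled with UMI-tools 1.1.1, reads were trimmed with Trimmomatic 0.30 and aligned to GRCh38 with Bowtie 0.12.7 allowing 3 mismatches, copies were removed by barcode, and clusters were called by PARalyzer in each library separately. The deposited counts per cluster are reads and T positions read as C or as T, without normalization. Since a cluster needs a minimum of reads and conversions to be called, a site under it is missing, not 0. The labels give the higher lysate dose as 0.1 U/µL; a passage of the methods gives another value, and the labels were followed.

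All cluster sequences were identical to GRCh38. Clusters were assigned to GENCODE release 44 exons with bedtools 2.31.1, and counts were summed by gene in Python 3.11.15 with pandas 2.3.3 and scipy 1.17.1. Genes with at least 50 reads over both libraries entered ratios, without a pseudocount and with 3 reads as the limit for a gene at 0, and genes with at least 20 reads in each entered conversions and lengths. With 1 library per condition no test between conditions was run. The functions were tested on simulated data. Named genes were those the study discusses, the 8 with the most reads, the 10 highest and 10 lowest ratios by the interval bound nearest 1, the 5 largest differences each way in conversions and length among genes with at least 200 reads in each, and the deepest members of 16 lists. The members and lists were chosen with earlier results of these data known. RNase T1 libraries were not used here.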

Additional observations from a re-analysis of the deposited data

How the results depend on the processing

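No paired analysis was possible because each condition is 1 library, and leaving out a replicate was not possible for the same reason. The counts of genes at least 2-fold higher and lower with 0.1 (194 and 126) became 546 and 413 with a minimum of 20 reads, 1019 and 1028 with no minimum, 12 and 11 with a minimum of 200 reads, 535 and 427 at 1.5-fold, and 21 and 51 with clusters that overlapped one of the other library, where the split turned from 60.6% to 29.2% higher; 72 were lower among protein-coding genes (71.0% higher), and the split was 49.8% with no minimum. They stayed within 1.5 times with single-gene clusters, another size factor (median of ratios), the deepest 20 genes out of the denominator, clusters of at least 10 reads, 1 read added, mitochondrial clusters left out and the 50% rule, the last 2 chosen after seeing the data. Under the 50% rule the log2 ratio of BZW1P2 turned to -0.90 and that of LINC01123 to -3.32, since their long clusters lie mostly outside or across annotated exons. Of 616 values of 58 named genes under these settings, 593 stayed within the gene's interval and 21 moved out of it, of which KITLG (0.01 with matched clusters) and IGF2BP3 (0.13 with clusters of at least 10 reads) changed sign. With matched clusters the log2 ratio of the library totals fell by 0.08, which by itself adds as much to every log2 ratio (FABP5 from 0.05 to 0.13). Reads lost with unmatched clusters moved single genes further, either up (CCT4 from -2.12 to -1.06) or down (CCNG1 from -0.11 to -0.16). The ribosomal protein median stayed between -0.55 and -0.41, and the shortest and longest 3′ UTR quintiles kept their signs, in 5 added settings, but the median of the longest (0.19) was 0.09 with matched clusters and 0.14 with 1 to 1 clusters. The median difference in conversions per read (0.0389) was 0.0356 as a median over clusters, 0.0462 with clusters of at least 20 reads, 0.0455 with 100 reads per gene and 0.67 in percentage points of T observations. That in cluster length (3.44 nt) was 0.50 nt as a median over clusters, 53 nt as covered length, 5.03 nt in 1 to 1 pairs and 5.28 nt with 100 reads per gene. Target genes of 1 library were 1131 with 0.1 and 625 with 0.05 at 8 reads, in place of 752 and 1047. That turned the order of the libraries, with a limit that is stricter for the 0.05 library. Above 20 RPM they were nearly equal, 575 and 563, and 2540 were shared in place of 4060. Counting coding sequence before 3′ UTR gave 3′ UTR shares of 63.3% and 60.2%. Unless stated the cause was not tested. Depth limits the single genes: in the quintile of genes with the fewest reads 14.9% were past 2-fold in one direction and 7.88% in the other.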
